A study of Mus musculus with 10 samples.

Results

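Oxidative phosphorylation subunits encoded in the nucleus were examined in lumbar motor neurons. The members were all gene rows of the deposited tables whose symbol follows the naming of subunits of complexes I to V, that is Nduf, Sdh, Uqcr, Cox and Atp5 names, without entries named as pseudogenes by an ending in -ps. This symbol rule found 91 rows, of which 7 carried such an ending, and left 84 genes of the 51912 genes in the count files. They comprised 38 genes of complex I, 4 of complex II, 8 of complex III, 17 of complex IV and 17 of complex V. Ndufa4, named for complex I, was placed in complex IV, where its protein is found. The rule used names and no measured value. The reference types 4 of the 84, Cox6c2, Ndufa11b, Ndufb4c and Ndufs6b, as processed pseudogenes.

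Complexes I to IV pass electrons from NADH and succinate to oxygen, and complexes I, III and IV pump protons across the inner mitochondrial membrane. Complex V, the ATP synthase, uses the proton gradient to make ATP. A small set of core subunits is encoded in mitochondrial DNA, and most subunits are made from nuclear genes and imported. Motor neurons have long axons and a high demand for ATP, and the oxidative capacity of a motor unit differs between slow and fast types.

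The study sequenced 10 mice, 5 of them HSA-NRTN and 5 wild-type littermate controls, each group having 3 females and 2 males. Every library was a pool of about 50 laser-captured motor neurons of 1 mouse. In HSA-NRTN mice the human skeletal actin promoter drives neurturin, a secreted neurotrophic factor related to GDNF, in muscle, so that the transgene is expressed outside the captured cells and no level in these libraries checks the genotype label. The labels give no age, and only cells with a visible nucleolus and a large profile were captured, so that small motor neurons are not represented. The series asks how neurturin from muscle relates to motor neuron identity, and the comparison below asks whether the subunit genes differed between the genotypes. HSA-NRTN 1 and 2 and wild-type 2 and 5 are the male libraries, and the numbers follow the order of the records.

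The libraries held 1875971 to 6641695 gene counts and between 14090 and 19675 detected genes. Members took 2.04% to 4.35% of gene counts, with the lowest shares in HSA-NRTN 2 (2.04%) and wild-type 1 (2.13%), which also had the fewest detected genes (14858 and 14090). All 7 motor neuron markers were found, with a summed level of 5518 to 8362 CPM in HSA-NRTN and 6478 to 8344 CPM in wild-type libraries, where CPM is the count relative to the library size after TMM scaling. The summed level of 5 oligodendrocyte markers, all of them detected, was 243.5 to 1382 CPM in HSA-NRTN and 193 to 598 CPM in wild-type libraries, and was highest in HSA-NRTN 2. Summed astrocyte markers (19.0 to 83.2 CPM over all libraries) and endothelial markers (0.344 to 23.8 CPM) were highest in HSA-NRTN 2 as well. Inhibitory interneuron markers (7.74 to 222 CPM) were highest in wild-type 1 and microglia markers (1.19 to 11.9 CPM) in wild-type 2. Only 3 of 5 astrocyte, 1 of 4 endothelial, 3 of 5 inhibitory interneuron and 1 of 5 microglia markers passed the filter on low counts. Reads not aligned made up 16.3% to 58.6% of the tally, with the highest share in HSA-NRTN 2. Of 6 skeletal muscle markers, Myh4 and Myh1 had 0 counts in every library, and the summed level was 0 to 1.97 CPM in HSA-NRTN and 0 to 1.17 CPM in wild-type libraries. In such pools, fewer cells and less RNA per cell cannot be told apart.

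Subunit genes were among the most abundant mRNAs of the motor neurons. Of the 84 members, 80 passed the filter on low counts, and Cox6a2, Cox7b2, Cox8b and Ndufb4c did not. As counts per length of exon model, scaled to the same sum in every library (TPM), the median level of the 80 was 541 TPM, against 14.8 TPM over all genes tested. The top 10% of tested genes began at 119.8 TPM, and 70 of the 80 members (87.5%) lay above it. Their exon models were short, with a median of 1578 bases against 4542 bases over all genes tested.

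On the exon models used here, which join all annotated exons of a gene, the highest levels belonged to small accessory subunits. Cox6b1, an intermembrane-space subunit of cytochrome oxidase, stood at 4285 ± 1868 TPM (SD, n = 10) and Ndufa1, a small membrane subunit of complex I encoded on the X chromosome, at 4192 ± 1341 TPM. Ndufa4 followed at 3888 ± 1504 TPM. These SDs are larger than the gaps between the 3 means, so their order is not resolved. In complex V, Atp5mpl, a small membrane-sector subunit, was highest at 2956 ± 1034 TPM, followed by Atp5k, the e subunit, at 1612 ± 420.0 TPM and Atp5g3 at 1535 ± 449 TPM. With the longest transcript of each gene as its length, Atp5g3 had 3124 TPM and Atp5k 1423 TPM, so the second place depends on the length model. In complex III the highest on the exon models were Uqcr10 at 1737 ± 563 TPM and Uqcrb at 1599 ± 833 TPM, both small accessory subunits, whereas with the median coding transcript as the length it was Uqcrh, at 1710.0 TPM. Ndufc2 had 2568 ± 512 TPM in complex I.

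The low end of the order depended on the length model. On the exon models Ndufs1, the largest iron-sulfur subunit of complex I, had 72.1 ± 19.2 TPM, and Uqcrc1, a core subunit of complex III, had 111 ± 61.5 TPM, the lowest values of their complexes. With the longest transcript they had 177 and 148 TPM, and with the median coding transcript 483.5 and 452 TPM, which were not the lowest of their complexes. The median coding transcripts of Ndufs1 and Uqcrc1 had 651 and 533 bases, against 2661 and 2473 for the longest. A shorter length gives a higher level. In complex IV the lowest tested gene was Cox7a1, the heart and muscle isoform of subunit 7a, at 67.3 ± 51.6 TPM. In complex V it was Atp5g2, one of the genes for the membrane ring subunit c, at 23.4 ± 13.5 TPM on the exon models. With the longest transcript Atp5l (33.8 TPM) lay below Atp5g2 (41.5 TPM). On the exon models the spread within a complex was 58.1-fold in complex I, 15.7-fold in complex III, 63.7-fold in complex IV and 126-fold in complex V. Complex II, which has the fewest genes and pumps no protons, spanned 6.80-fold. Its genes were Sdhd, a membrane anchor, at 581 ± 165 TPM, Sdhb, the iron-sulfur subunit, at 424 ± 207 TPM, Sdha, the flavoprotein, at 417 ± 86.1 TPM, and Sdhc, the other anchor, at 85.5 ± 28.4 TPM. Median levels by complex were 480.3 TPM for I, 420.5 TPM for II, 974 TPM for III, 819 TPM for IV and 544 TPM for V. They depend on the length model, and the median of complex IV was 1272 TPM with the longest transcript of each gene.

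**Figure D1:**
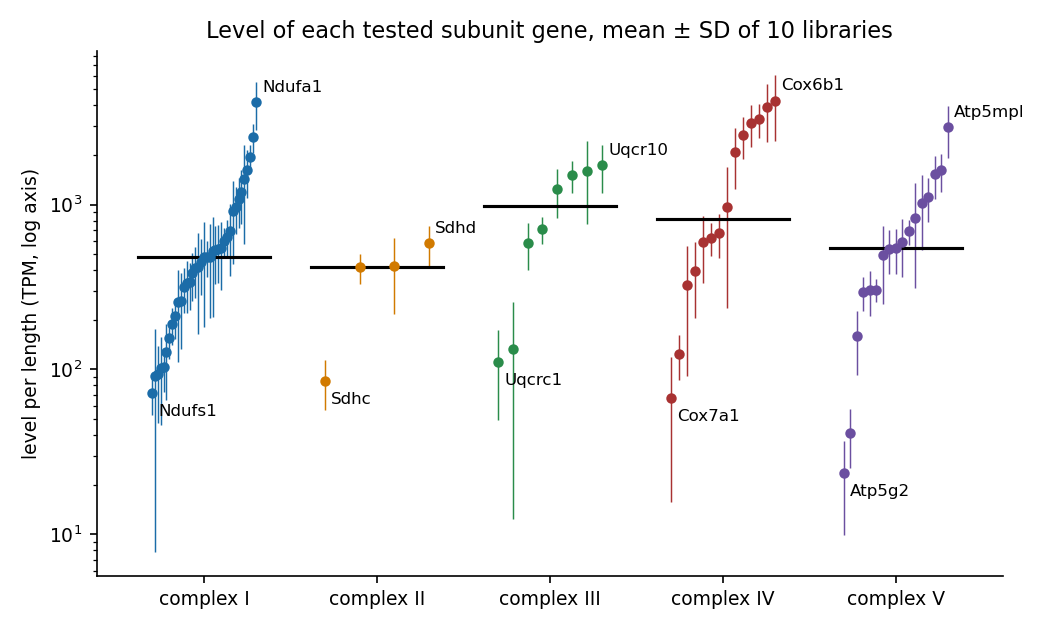
Level per length (TPM, log axis) of the 80 tested subunit genes, grouped by complex and ordered within it; points and bars are means ± SD of 10 libraries, horizontal lines are complex medians, and the lowest and highest gene of each complex are named. Levels range from 23.4 TPM (Atp5g2) to 4285 TPM (Cox6b1).

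Where a family of paralogs encodes the same position in a complex, 1 gene supplied nearly all counts in most families. Cox4i1, the common isoform of the regulatory subunit 4, held all counts of its pair, as Cox4i2, the lung and hypoxia isoform, had 0 counts in every library. Cox6a1, the common isoform, held 99.9% ± 0.118 (SD, n = 5) of its pair in HSA-NRTN and all of it in wild-type libraries, the rest being the muscle isoform Cox6a2. Cox8a, the common isoform of subunit 8, held 99.9% ± 0.106 and 99.96% ± 0.0799. Cox6b1, Cox7b and Ndufa4 averaged over 99.9% of their pairs, and the partners Cox6b2, Cox7b2 and Ndufa4l2 had 8, 32 and 1 counts in all. Uqcrh, the hinge protein of complex III, had no second gene in the reference. Shares were compared between genotypes by exact two-sided permutation tests, and none of the 12 shares passed, the lowest adjusted p being 0.952.

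Subunit 7a was the exception among the cytochrome oxidase families. Cox7a2, the common isoform, made up 91.6% ± 2.49 (SD, n = 10) of the family's counts, and Cox7a2l, which sits in respiratory supercomplexes, 7.16% ± 2.86. The muscle isoform Cox7a1 made up 2.90%, 1.08%, 1.26%, 1.18% and 2.20% in HSA-NRTN 1 to 5 and 1.59%, 0.777%, 1.15%, 0.348% and 0.296% in wild-type 1 to 5. Its share was 1.72% ± 0.794 in HSA-NRTN against 0.832% ± 0.547 in wild-type mice (SD, n = 5 each), and the groups overlapped. The exact permutation test gave p = 0.0794 and an adjusted p of 0.952.

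Subunit c of the ATP synthase was the other mixed family. Atp5g1, Atp5g2 and Atp5g3 encode the same mature peptide behind different import sequences, so that only the mRNAs tell them apart. Their coding sequences for the last 78 residues are shown because within this stretch the genes differ only at the letters in capitals. These are the 63 of 234 positions that are not the same in all 3 genes. Sequences are from the GENCODE M21 transcripts, 5′ to 3′ on the coding strand, and the genes lie on the minus strand of GRCm38 at chr11:96068852-96075670, chr15:102662864-102672352 and chr2:73908447-73911326.
Atp5g1: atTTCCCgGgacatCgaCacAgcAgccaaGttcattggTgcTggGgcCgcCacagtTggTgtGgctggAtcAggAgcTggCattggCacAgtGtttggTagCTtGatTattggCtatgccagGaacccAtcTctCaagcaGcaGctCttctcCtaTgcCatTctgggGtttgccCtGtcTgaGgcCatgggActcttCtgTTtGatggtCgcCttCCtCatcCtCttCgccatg
Atp5g2: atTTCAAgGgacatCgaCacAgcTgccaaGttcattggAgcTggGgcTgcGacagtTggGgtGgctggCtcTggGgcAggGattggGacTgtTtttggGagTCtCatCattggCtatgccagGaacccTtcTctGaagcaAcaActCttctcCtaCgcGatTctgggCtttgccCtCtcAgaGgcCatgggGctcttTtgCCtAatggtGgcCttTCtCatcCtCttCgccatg
Atp5g3: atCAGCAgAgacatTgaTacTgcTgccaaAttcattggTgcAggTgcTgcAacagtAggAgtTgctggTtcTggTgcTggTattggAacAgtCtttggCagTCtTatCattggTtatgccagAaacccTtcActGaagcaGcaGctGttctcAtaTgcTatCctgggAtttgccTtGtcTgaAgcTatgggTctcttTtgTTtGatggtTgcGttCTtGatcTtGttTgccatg

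Identity over this stretch was 84.6% for Atp5g1 and Atp5g2, 78.6% for Atp5g1 and Atp5g3 and 77.4% for Atp5g2 and Atp5g3, and the longest run shared by all 3 was 8 bases. Atp5g3 supplied 80.5% ± 7.23 (SD, n = 10) of the family's counts, Atp5g1 18.6% ± 6.80 and Atp5g2 0.932% ± 0.518. Per length the share of Atp5g3 was 89.3% ± 4.36. The share of Atp5g1 was 19.8%, 8.14%, 21.8%, 24.7% and 14.1% in HSA-NRTN 1 to 5 and 12.9%, 24.3%, 23.4%, 27.0% and 9.67% in wild-type 1 to 5. It was lowest in HSA-NRTN 2 and wild-type 5, both male, and the genotypes overlapped (17.7% ± 6.59 against 19.4% ± 7.66, exact permutation p = 0.667, adjusted p = 1).

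Some members have near-identical copies elsewhere in the annotation. A search of the annotated transcripts found at least 1 copy, at 95% identity over 80% of the coding sequence, for 24 of the 84 members, and 36 of the 42 copies are pseudogenes. Uniquely aligned reads can be split between such genes, so that the levels of these members are uncertain. The copy of Atp5g1 held 27.4% as many counts as the gene itself, the copy of Ndufs3 20.5% and the copies of Atp5md 20.3%, while the copies of Cox7b held 0.588%. The library kit marks no strand, and the spans of 30 members, introns included, overlap that of a gene on the other strand. Where exons overlap, the strand cannot tell the reads apart, and the overlap of exons was not measured.

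Many members shared a pattern over the libraries. The members' median log2 deviation from their own mean over the libraries was -0.03, -0.61, 0.31, 0.23 and 0.34 in HSA-NRTN 1 to 5 and -0.37, 0.12, 0.38, 0.39 and -0.33 in wild-type 1 to 5. Both genotypes thus held low and high libraries. HSA-NRTN 2 had the lowest level of 38 of the 80 members, wild-type 5 of 15 and wild-type 1 of 14. HSA-NRTN 5 had the highest level of 24, HSA-NRTN 4 of 19 and wild-type 4 of 14. The same counts were not made over all genes tested, so the pattern is not shown to be particular to the members. The summed level of all members was 30585, 20680.1, 39569, 37022 and 43636 CPM in HSA-NRTN 1 to 5 and 24137, 34443, 41560.2, 40456 and 27534 CPM in wild-type 1 to 5. It averaged 34298 ± 8967 CPM in HSA-NRTN and 33626 ± 7704 CPM in wild-type libraries (SD, n = 5 each), a ratio of 1.02, and 1.05 without HSA-NRTN 2 and wild-type 1. Ratios for the single complexes were 1.02 for I, 0.957 for II, 0.968 for III, 1.04 for IV and 1.03 for V.

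**Figure D2:**
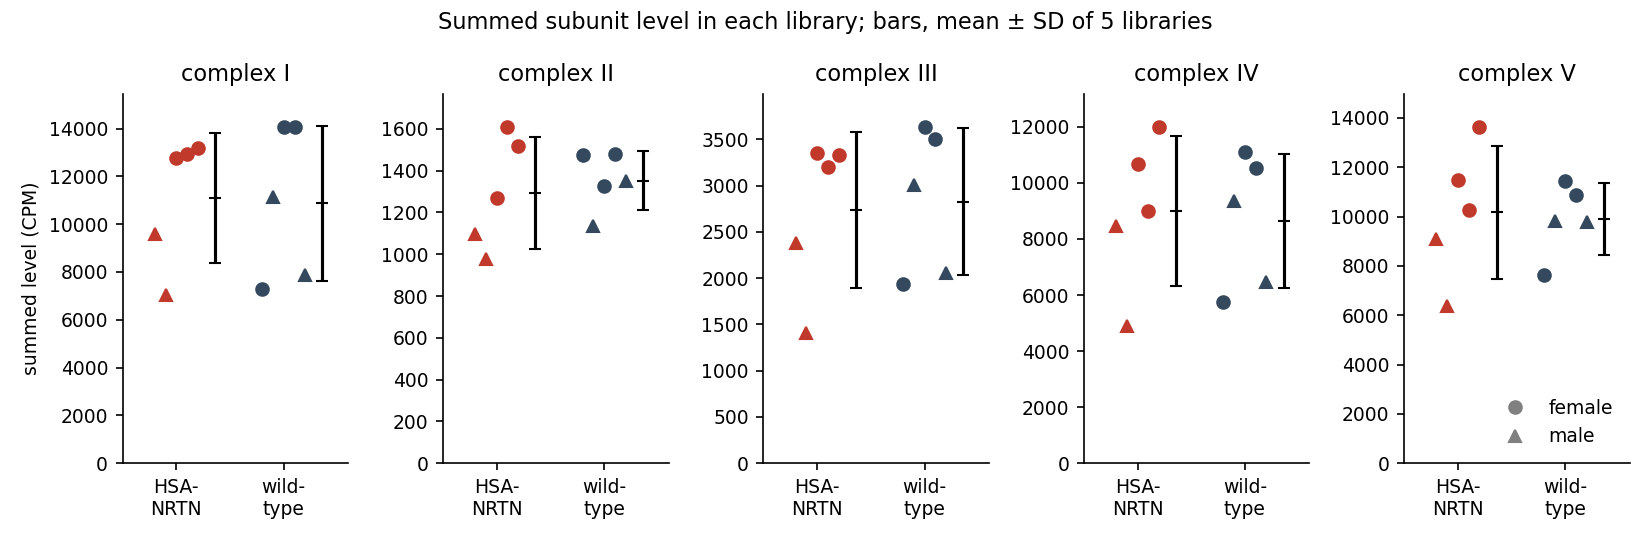
Summed level (CPM) of the members of complexes I to V in each of the 10 libraries, by genotype; circles are female and triangles male mice, and bars are mean ± SD of 5 libraries. The genotypes overlap in every complex, and HSA-NRTN 2 is the lowest library in each panel.

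The members differed in how strongly they took part in this pattern. Uqcrc2, a core subunit of complex III on chromosome 7 (chr7:120635176-120659524), varied most, with 35.3, 7.03, 211, 334 and 157 CPM in HSA-NRTN 1 to 5 and 9.18, 82.1, 153, 135 and 59.9 CPM in wild-type 1 to 5. The highest library exceeded the lowest 47.5-fold, and the low libraries were HSA-NRTN 2 and wild-type 1, 1 of each genotype. Ndufs3, a core subunit of complex I (chr2:90894634-90904827), had 19.0, 10.3, 109.9, 179.9 and 64.1 CPM in HSA-NRTN 1 to 5 and 6.66, 31.7, 112, 139 and 22.4 CPM in wild-type 1 to 5, a 27.0-fold range. The females other than wild-type 1 lay above all males, and the lowest value was that of wild-type 1. Cox5a, a subunit of cytochrome oxidase, ranged 31.6-fold, from 14.6 CPM in HSA-NRTN 2 to 461 CPM in HSA-NRTN 4. Ndufs5 ranged 14.3-fold, from 16.8 CPM in HSA-NRTN 2 to 239 CPM in wild-type 4.

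Other members were nearly level. Atp5b, the catalytic beta subunit of the ATP synthase (chr10:128083273-128090391), had 1131, 1231, 887, 1363 and 1055 CPM in HSA-NRTN 1 to 5 and 1115, 1019, 880.0, 960.0 and 902 CPM in wild-type 1 to 5, a 1.55-fold range. Atp5j2, the f subunit, ranged 1.67-fold, from 280.5 to 468 CPM, and Ndufa2 ranged 1.59-fold, from 303 to 483 CPM. In HSA-NRTN 2 they stood at 1231, 317 and 372 CPM, inside the range of the other libraries. Ndufs1 went the other way, with its highest levels in HSA-NRTN 2 (313 CPM) and wild-type 1 (311 CPM), against 102 to 258.5 CPM in the other libraries. The median biological coefficient of variation was 0.347 over the members and 0.527 over all genes tested. The members were also the more abundant (median 541 against 14.8 TPM), and genes of like level were not set beside them.

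**Figure D3:**
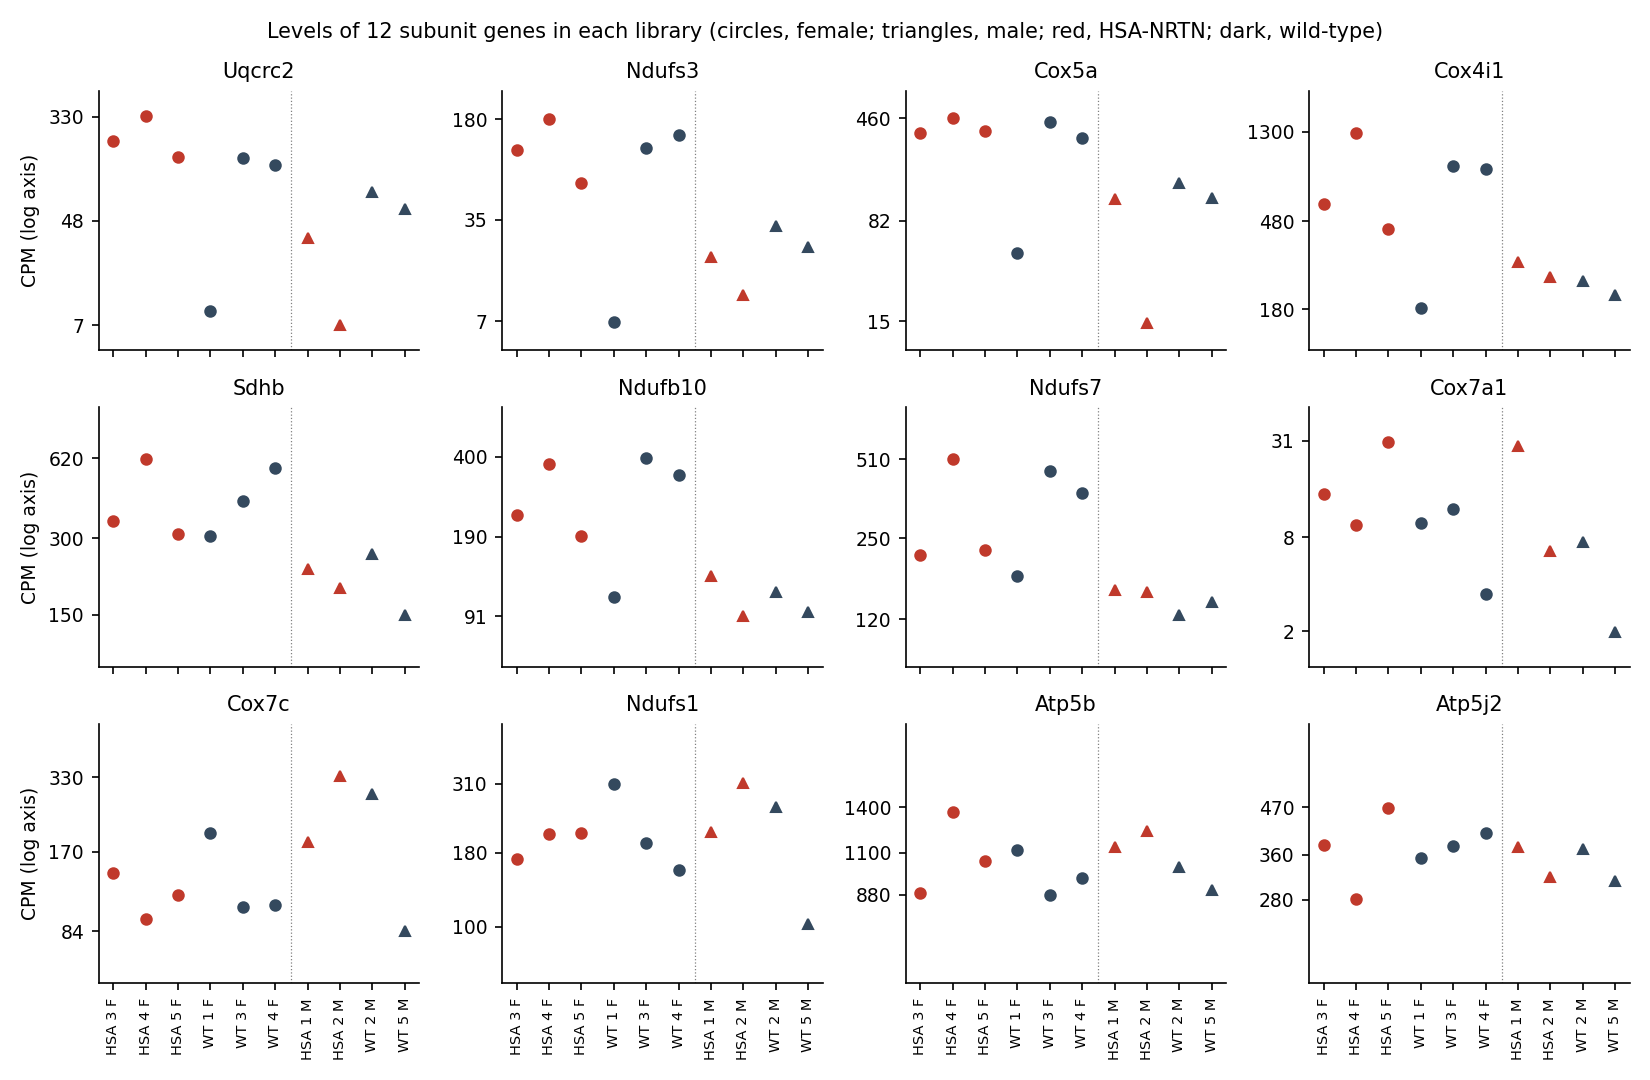
Levels (CPM, log axis, each panel on its own scale) of 12 subunit genes in the 10 libraries, female libraries (circles) left of the dotted line and male (triangles) right of it; red is HSA-NRTN and dark is wild-type. Uqcrc2, Ndufs3 and Cox5a are lowest in HSA-NRTN 2 and wild-type 1, Ndufs1 is highest there, and Atp5b and Atp5j2 stay within 1.55-fold and 1.67-fold.

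Genotype was tested gene by gene with edgeR's quasi-likelihood test over all 11630 genes kept, with Benjamini-Hochberg adjustment. No member passed at an adjusted p of 0.05, where 1 gene of all tested (0.0086%) did, and the lowest adjusted p of a member was 0.996. DESeq2 and limma voom called no member either, where they called 58 and 3 of all 11630 genes. At an unadjusted p under 0.05 there was 1 member (Cox7a1, higher) against 4.83% of all genes, and no member's groups failed to overlap, against 1.25% of all genes. The p-values rest on the spread between libraries. Each library is 1 pool from 1 mouse, so differences between animals and between pools cannot be told apart.

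The fitted differences were small. The median log2 fold change (HSA-NRTN over wild-type) was 0.03 over the 80 members, with 45 values above 0 and 35 below, and -0.01 over all genes tested. By complex it was 0.03 for I, -0.04 for II, -0.01 for III, 0.14 for IV and 0.01 for V. The median size of the difference, whatever its sign, was 0.12 for the members and 0.30 for all genes. The 95% interval lay within 2-fold in both directions for 62 of the 80 members (77.5%), against 28.9% of all genes, and within 1.5-fold for 6 members (7.50%), against 3.12%. A 1.5-fold difference therefore remains within the interval of most members. The members were more abundant than most genes (median 541 TPM against 14.8 TPM over all genes tested). Genes of like level were not set beside them, so the smaller differences and narrower intervals are not shown to be particular to the members.

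**Figure D4:**
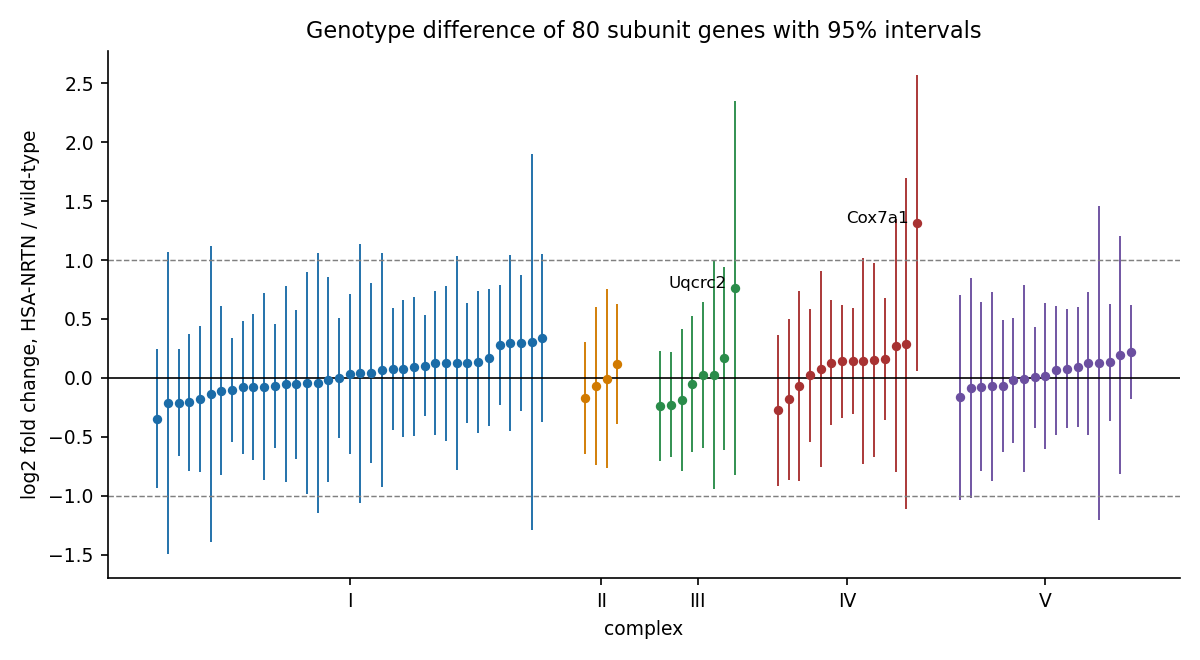
Log2 fold change (HSA-NRTN over wild-type) of the 80 tested subunit genes with 95% intervals from edgeR's quasi-likelihood fit, ordered within complexes I to V; dashed lines mark 2-fold. The interval of Cox7a1 alone leaves 0 out, and 62 of 80 intervals stay between the dashed lines.

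In complex I the smallest unadjusted p-values by edgeR were those of Ndufa12 and Ndufa13, both accessory subunits, among lower genes, and of Ndufs6 and Ndufa5 among higher ones, and none passed. Ndufa12 had 198, 112, 188, 198 and 263 CPM in HSA-NRTN 1 to 5 and 175, 260.5, 296, 341 and 147 CPM in wild-type 1 to 5. The groups overlapped over most of their range, and the log2 fold change was -0.35 (SE 0.28, edgeR adjusted p = 0.999). Ndufa13 stood at -0.21 (SE 0.21) on the same scale, Ndufs6 at 0.28 (SE 0.24) and Ndufa5 at 0.29 (SE 0.27). Ndufa1, the most abundant gene of the complex, averaged 587 ± 254 CPM in HSA-NRTN and 679 ± 112 CPM in wild-type libraries.

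The 4 genes of complex II, also known as succinate dehydrogenase of the citric acid cycle, had intervals within 2-fold. Sdha had 600.0, 465, 533, 541 and 810.3 CPM in HSA-NRTN 1 to 5 and 866, 550.2, 540.0, 551 and 806 CPM in wild-type 1 to 5. Its log2 fold change was -0.17 (SE 0.22). Sdhb, Sdhc and Sdhd had log2 fold changes of -0.01 (SE 0.36), -0.07 (SE 0.31) and 0.12 (SE 0.24).

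In complex III, Uqcrc2 had the largest fitted difference, a log2 fold change of 0.76 with an SE of 0.75 and an interval from -0.82 to 2.35. Uqcrc1, the other core protein, had 0.16 (SE 0.37). On the lower side stood Uqcr11 at -0.24 (SE 0.22) and Uqcrfs1, the Rieske iron-sulfur protein, at -0.23 (SE 0.21). None of these passed.

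In complex IV, Cox7a1 (chr7:30184144-30186078) had 29.1, 7.03, 15.2, 9.98 and 30.6 CPM in HSA-NRTN 1 to 5 and 10.3, 7.93, 12.4, 3.96 and 2.38 CPM in wild-type 1 to 5. It averaged 18.4 ± 10.9 CPM and 7.41 ± 4.22 CPM (SD, n = 5 each). HSA-NRTN 1, 3 and 5 lay above all wild-type libraries, HSA-NRTN 2 below 3 of them, and the groups overlapped. Its log2 fold change was 1.31 (SE 0.59, edgeR adjusted p = 0.996). In the authors' deposited table the log2 fold change of Cox7a1 was 0.88, with a p of 0.0234 and an adjusted p of 0.446. Cox7a1 had 549 counts over all libraries, the fewest of the tested members. The log2 fold change of Cox7b was 0.16 (SE 0.24), that of Cox7a2l -0.28 (SE 0.30) and that of Ndufa4 -0.18 (SE 0.32).

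In complex V the smallest p-values were those of Atp5b at 0.22 (SE 0.19, interval -0.18 to 0.62) and Atp5d, the delta subunit of the catalytic head, at 0.13 (SE 0.23) among higher genes. Among lower genes they were those of Atp5h, a stalk subunit, at -0.17 (SE 0.41) and Atp5f1, the stalk subunit b, at -0.07 (SE 0.26). In the authors' deposited table no member had an adjusted p under 0.05, 1 had an unadjusted p under 0.05, and 4 had no adjusted p.

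Sex was recorded for every mouse and was tested with genotype in the model. No member passed by edgeR's quasi-likelihood test with Benjamini-Hochberg adjustment (lowest adjusted p = 0.359), where 1 gene of all tested (0.0086%) did. At an unadjusted p under 0.05, 26 of the 80 members (32.5%) were higher in females, against 6.42% of all genes tested, and 1 was lower, against 4.77%. Of the 80 values, 71 (88.8%) lay above 0, against 50.8% of all genes, and the median log2 fold change (female over male) was 0.41 against 0.01. By complex the median was 0.48 for I, 0.21 for II, 0.38 for III, 0.41 for IV and 0.27 for V. The 26 genes comprised 15 of complex I, 1 of II, 2 of III, 3 of IV and 5 of V.

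**Figure D5:**
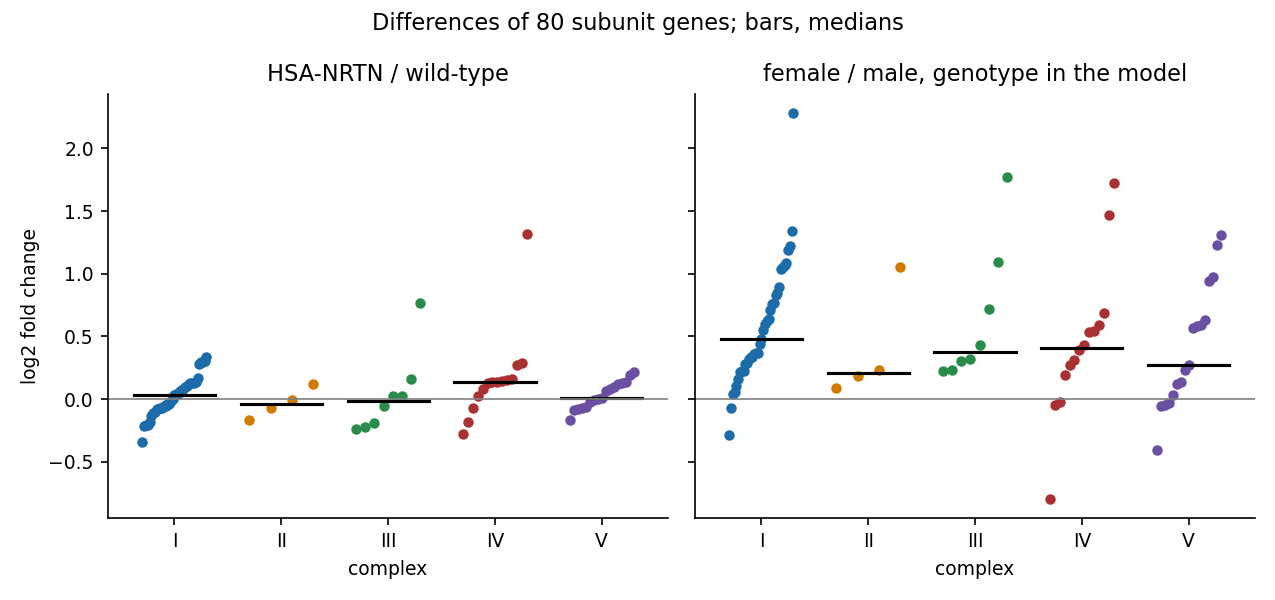
Log2 fold changes of the 80 tested subunit genes by complex, HSA-NRTN over wild-type (left) and female over male with genotype in the model (right); each point is 1 gene and lines are complex medians. The genotype medians lie between -0.04 and 0.14 and the sex medians between 0.21 and 0.48.

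The sexes did not overlap for 3 members, all higher in females, against 1.17% of all genes tested. Sdhb had a lowest level of 306 CPM, a median of 387 CPM and a highest of 616 CPM in the 6 female libraries, against 227, 191, 260.5 and 149.5 CPM in HSA-NRTN 1 and 2 and wild-type 2 and 5. Its log2 fold change was 1.05 (SE 0.27, edgeR adjusted p = 0.359). Ndufs7, a core iron-sulfur subunit of complex I, ran from 177 CPM over a median of 300.1 CPM to 512 CPM in females and had 156, 154, 125 and 140.2 CPM in the males. Ndufa8, an accessory subunit, ran from 141 to 273 CPM in females and from 73.4 to 135 CPM in males.

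Other members differed as much but overlapped through wild-type 1, the low female library. Cox4i1 averaged 705 ± 388 CPM in females (SD, n = 6) and varied less in males, from 210.2 to 306 CPM, with 182 CPM in wild-type 1 and 439 CPM or more in the other females. Its log2 fold change was 1.47 (SE 0.40). On the same scale Ndufb10, an accessory subunit of complex I, differed by 1.34 (SE 0.34) and Ndufs3 by 2.28 (SE 0.64). Atp5c1, the rotating gamma subunit of the ATP synthase, had 1.31 (SE 0.41). The member lower in females was Cox7c, a small subunit of cytochrome oxidase, at -0.79 (SE 0.34), with 93.6 to 202 CPM in females and 185, 333, 285 and 84.5 CPM in HSA-NRTN 1 and 2 and wild-type 2 and 5. These genes were chosen for naming after their values were seen.

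The fitted sex differences of the catalytic head and the peripheral stalk of complex V are given, and those of its other genes are not. The other genes varied in direction. Atp5k had a female median of 312 CPM against 390 to 466 CPM in males, and Atp5l 119 CPM against 23.2 to 92.3 CPM. The catalytic head of the ATP synthase is built from alpha, beta, gamma, delta and epsilon subunits. Its alpha subunit Atp5a1 had a sex log2 fold change of -0.04 (SE 0.25), its beta subunit Atp5b -0.03 (SE 0.19), Atp5d -0.05 (SE 0.24) and Atp5e, the epsilon subunit, 0.03 (SE 0.30). Atp5c1, the gamma subunit, had 1.31, with 732 ± 303 CPM in females (SD, n = 6) and 300.5 ± 130.3 CPM in males (SD, n = 4). Its levels were 236, 148, 913, 1101 and 581 CPM in HSA-NRTN 1 to 5 and 221, 410.0, 771, 801 and 408 CPM in wild-type 1 to 5, and wild-type 1 was again the only female library inside the male range. The 4 genes of the peripheral stalk, which holds the head in place, had sex log2 fold changes of 0.57 (SE 0.24) for Atp5f1, 0.98 (SE 0.37) for Atp5h, 0.95 (SE 0.41) for Atp5j and 0.59 (SE 0.21) for Atp5o. With Atp5c1 they were the 5 genes of complex V at an unadjusted p under 0.05, and none passed after adjustment. Differences between subunits were not tested.

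Values of 6 core subunits of complex I, which belong to the arm that takes electrons from NADH, were set side by side. Per length on the exon models they ran from Ndufv2 at 910.3 ± 472 TPM (SD, n = 10) over Ndufs8 at 524 ± 316 TPM and Ndufs7 at 416 ± 252.99 TPM to Ndufv1 at 104 ± 30.7 TPM, Ndufs3 at 91.3 ± 83.4 TPM and Ndufs1 at 72.1 ± 19.2 TPM. This order depends on the length model, and with the median coding transcript Ndufs1 stood at 483.5 TPM, above Ndufs7 (431 TPM) and Ndufs8 (362 TPM). For Ndufs1 that median was only 651 bases, where its longest transcript has 2661. With the longest transcript Ndufs1 had 177 TPM, below Ndufs7 (580 TPM) and Ndufs8 (536 TPM). Their sex log2 fold changes were 2.28 for Ndufs3, 1.19 for Ndufs7, 1.09 for Ndufs8 (SE 0.42) and 1.07 for Ndufv2 (SE 0.38), against 0.32 (SE 0.26) for Ndufv1 and -0.07 (SE 0.30) for Ndufs1. For genotype these 6 genes lay between -0.08 and 0.30 on the log2 scale.

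The sex difference rested in part on single libraries and on the setting. Without wild-type 1, edgeR called 12 members, where it called 176 of all 12054 genes tested. In that fit 38 members had an unadjusted p under 0.05 higher in females, where 10.3% of all genes did. Without HSA-NRTN 2, the male library with the lowest members, the count at an unadjusted p under 0.05 was 12, against 4.50% of all genes. Without both it was 29, against 8.53% of all genes, and no member was called. DESeq2 called 6 members, all higher in females, where it called 105 of all 11630 genes. The 6 were Ndufs3, Sdhb, Ndufs7, Atp5c1, Cox4i1 and Ndufb10. Females had 17100.3 ± 2125 genes with a count (SD, n = 6) and males 15539.5 ± 628 (SD, n = 4). With that number in the model, 6 members had an unadjusted p under 0.05, against 3.13% of all genes, and the median log2 fold change was 0.27. The summed oligodendrocyte markers were 193 to 598 CPM in females and 243.5 to 1382 CPM in males, with all 5 markers detected. The part of these and of the other cell type markers in the difference was not tested.

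Whether the genotype difference itself depended on sex was tested by the interaction. No member passed by edgeR (lowest adjusted p = 0.922), as no gene of all tested did (0%). DESeq2 called no member, where it called 8 of all 11630 genes. At an unadjusted p under 0.05 there were 2 members, Uqcrc2 and Atp5c1, against 5.14% of all genes. That count rested on single male libraries. Without HSA-NRTN 1 it was 17, all higher, where 7.52% of all genes were so, and without HSA-NRTN 2 it was 0, where 2.27% were. Either fit leaves 1 HSA-NRTN male, which is assumed to vary like the other groups. The interaction of Uqcrc2 was 2.94 on the log2 scale (SE 1.19, edgeR adjusted p = 0.922) and that of Atp5c1 was 1.62 (SE 0.66). Uqcrc2 had 211, 334 and 157 CPM in the HSA-NRTN females against 9.18, 153 and 135 CPM in the wild-type females, and 35.3 and 7.03 CPM against 82.1 and 59.9 CPM in the males.

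Promoters of members were searched for the binding sequences of factors known to act on respiratory genes, since many members shared a pattern over the libraries. RefSeq promoter sequences on GRCm38.p6, from 250 bases before to 50 after the start, matched 66 of the 84 members with 71 promoters, and the table holds 32851 promoters in all. Both strands were read, and a match is a description of the letters only. The NRF1 core GCATGCGC was in 14.1% of member promoters and 2.71% of all promoters. The ETS sequence CCGGAAG, read by GABPA, was in 23.9% and 8.86%, the YY1 sequence AAGATGGCG in 9.86% and 1.40%, and AAGGTCA, read by estrogen-related receptors, in 11.3% and 4.72%.

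Stretches of 60 bases from 4 of these promoters are shown, 5′ to 3′ on the gene's strand, to place a match beside genes described here. Capitals mark the match. Ndufb6 and Ndufa6 were among the 26 genes with an unadjusted p under 0.05 in the sex comparison, Ndufs5 was among the most variable genes, and Atp5g3 is the main gene of subunit c. The matches begin 232, 83, 228 and 52 bases before the gene start, at chr4:40279612-40279671, chr15:82354341-82354400, chr4:123718377-123718436 and chr2:73911345-73911404 (window, minus strand).
Ndufb6, ETS sequence: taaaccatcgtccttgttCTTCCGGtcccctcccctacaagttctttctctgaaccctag
Ndufa6, NRF1 core: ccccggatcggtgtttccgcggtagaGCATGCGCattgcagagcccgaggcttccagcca
Ndufs5, estrogen-related receptor sequence: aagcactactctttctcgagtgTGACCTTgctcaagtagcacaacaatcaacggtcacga
Atp5g3, estrogen-related receptor sequence: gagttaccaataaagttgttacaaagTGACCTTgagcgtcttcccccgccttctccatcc

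Other genes of the pathway were read in the same fit. Of 13 subunits encoded in mitochondrial DNA, 12 were tested, and 11 had a log2 fold change below 0 for genotype, with a median of -0.35, where 5982 of all 11630 genes lay below 0. None passed by edgeR, and 2 had an unadjusted p under 0.05, both lower in HSA-NRTN, against 2.42% of all genes. mt-Nd5, a proton-pumping subunit of complex I, averaged 1720.0 ± 275 CPM in HSA-NRTN and 2806 ± 815 CPM in wild-type libraries (log2 fold change -0.71, SE 0.22, edgeR adjusted p = 0.680). mt-Atp6, the proton channel of the ATP synthase, averaged 47.6 ± 21.9 and 105 ± 65.6 CPM. The summed level of these mRNAs was 35960.2 to 71305 CPM in HSA-NRTN and 40450.4 to 113863 CPM in wild-type libraries, and was highest in wild-type 1, where the nuclear members were low. For sex their median was -0.47 on the log2 scale, the opposite sign to the nuclear members, and 2 values lay above 0. The 2 with an unadjusted p under 0.05 lay on both sides, mt-Co1, the catalytic subunit of cytochrome oxidase, at 0.81 (SE 0.25) and mt-Co2 at -0.96 (SE 0.43), and neither passed.

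Assembly factors, which build the complexes without staying in them, had a median of -0.03 for genotype over 48 tested genes and 0.46 for sex. None passed, and 11 had an unadjusted p under 0.05 higher in females, against 6.42% of all genes, among them Sdhaf4, Ndufaf5 and Cox14, with log2 fold changes of 0.996 (SE 0.28), 0.94 (SE 0.29) and 0.72 (SE 0.24). Another 3 had one lower in females, against 4.77% of all genes, and were Uqcc1 at -0.62 (SE 0.29), Cox10 at -0.94 (SE 0.44) and Cox17 at -0.98 (SE 0.46). Over 10 subunits and carriers outside the symbol rule the medians were -0.07 for genotype and 0.47 for sex, and over 13 genes of coenzyme Q synthesis 0.00 and 0.38. Over 14 regulators of mitochondrial genes they were 0.39 and -0.08. No regulator passed. Esrrg, an estrogen-related receptor, averaged 197 ± 41.9 CPM in HSA-NRTN and 127 ± 41.5 CPM in wild-type libraries (log2 fold change 0.63, SE 0.26, edgeR adjusted p = 0.949).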

How the data were processed

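Pools of lumbar motor neurons from 10 mice were sequenced by Smart-seq2 with Tn5 fragmentation, per the labels' protocols. Per the submitters' processing notes, STAR 2.5.0a and HTSeq made the counts and GRCm38.p6 was the build. The annotation release is not given in the sources used here. Each deposited file of raw counts lists 51912 genes, 92 spike-in rows and 5 tally rows that name no gene. Tally rows held 57.6% to 86.5% of all reads per library, and both kinds stayed out of library sizes and tests. A deposited table holds a signal for 18754 features, the counts over 1 DESeq2 size factor per library. The authors' deposited comparison table gives log2 fold changes, a Wald score and p-values and is quoted only where named.

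Counts were analysed with edgeR 4.0.16 in R 4.3.3. Genes were kept by filterByExpr (11630), libraries were scaled by TMM, and the quasi-likelihood test was run over all genes kept with Benjamini-Hochberg adjustment, called under 0.05. Genotype had no covariate, sex was tested with genotype, and the interaction with both. Levels per length used exon models of GENCODE M21, which held all 84 members. Alternatives were other scalings, filters, DESeq2 1.42.0, limma 3.58.1 with voom, covariates and left-out libraries. Copies were searched with BLAST+ 2.17.0. Genes named by rule were, per complex, the 2 of smallest unadjusted p in each direction for genotype, the 2 highest and the lowest per length. All paralogs of listed families and all genes of complex II were named as well. Members named for their range over the libraries, for sex, as a module or for a promoter stretch can lie outside this rule. Those were chosen with the values known. From each pathway list up to 3 genes of smallest unadjusted p under 0.05 were named. The members and the lists were chosen with earlier results of these data known. The kit uses no molecular identifiers, so that PCR copies of 1 molecule count more than once.

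In a test on simulated data over 11630 genes, the genotype test recovered 3.70% of genes changed 2-fold, 32.7% of those changed 4-fold and 68.8% of those changed 8-fold, with 2 false calls among 67. The sex test recovered 5.48%, 55.8% and 65.3%, with 1 false call among 83.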

Additional observations from a re-analysis of the deposited data

Results flagged for a closer look

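A library far from the other 4 of its genotype was found in 5 of 84 groups of 5 libraries, and chance flags about 1 in 20 such groups. HSA-NRTN 2 had 313 CPM of Ndufs1, against 171 to 212 CPM in the other HSA-NRTN libraries, 225 CPM of Uqcr11 against 326 to 366 CPM, and 103 CPM of Cox8a against 471 to 593 CPM. HSA-NRTN 4 had 445 CPM of Uqcrfs1 against 267.5 to 305 CPM, and 174 CPM of Atp5k against 391 to 435 CPM.

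The observed genotype ratio of Uqcrc2 lay in opposite directions in the sexes. Mean levels were 2.35 times as high in HSA-NRTN as in wild-type females and 0.298 times as high in HSA-NRTN as in wild-type males. The female ratio leans on wild-type 1, at 9.18 CPM against 153 and 135 CPM in wild-type 3 and 4. The lowest HSA-NRTN female had 157 CPM. The interaction had an unadjusted p under 0.05 but no adjusted one by edgeR (adjusted p = 0.922).

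Ndufb1-ps, which the rule leaves out by its ending, had 27278 counts over all libraries and is typed in the reference as a non-coding RNA from a bidirectional promoter. It has the base name of a complex I subunit that has no other row among the members.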

How the results depend on the processing

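No paired analysis was possible because the labels give no replicate numbers and the numbers used here follow the order of the records. The count of members called for genotype was 0 under all alternatives run. The median genotype log2 fold change of the members ranged from -0.26 in males alone to 0.23 with the run of animal numbers as a covariate. This covariate splits the mice at the gap in their animal numbers, and no label gives it as a batch. HSA-NRTN 1, 2 and 3 and wild-type 1 form the lower run, so the covariate is not balanced between the genotypes. Leaving out the filter moved the median of all genes from -0.01 to 0.11 for genotype and from 0.01 to 0.17 for sex on the log2 scale. For sex, 15 members were called without the filter, where 315 of all 26070 genes were, and 6 by DESeq2, where 105 of 11630 were. With 1 library left out, 0 to 12 members were called. The 12 were called without wild-type 1, where 176 of 12054 genes were. The members at an unadjusted p under 0.05 higher in females numbered 6 with genes detected as a covariate and 12 to 38 with 1 library left out, the fewest without HSA-NRTN 2. For the interaction, 1 member (Uqcrc2) was called without the filter, where 35 of all 26070 genes were. Median levels per length were 1272 TPM for complex IV with the longest transcript and 815 TPM for complex V with the median coding transcript. The causes were not tested. Another 213 values of the main comparisons moved by less than the spread between libraries or stayed on their side of the threshold. Among the genotype log2 fold changes of single named genes, 39 values moved by more than their standard error, most of them in males alone. Uqcrc2 ranged from -1.72 in males alone to 1.80 with the run of animal numbers as a covariate, Cox4i1 from -0.43 with genes detected as a covariate to 0.80 with that run, and Atp5h from -1.06 in males alone to 0.29 with that run. None of the 39 passed the test. Gene counts of 1875971 to 6641695 and 5 animals per genotype limit the precision.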
